A study of Mus musculus with 132 samples.

Results

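The 42 genes described here are 19 genes that most or all white blood cells use, called pan-leukocyte genes below, and 23 genes that mark myeloid cells, the branch of blood that gives neutrophils, monocytes and macrophages. They were chosen by name from the 25146 genes of a count table of poly(A)-minus RNA, the RNA that is left when polyadenylated messages are taken out and that is rich in unspliced and nascent transcripts. The table holds 23 libraries of a mouse embryonic stem cell (mESC) differentiation system made to study the Runx1 gene, which encodes a transcription factor needed for the emergence of blood cells. All libraries come from the male 129/Ola line E14-TG2a. Undifferentiated wild-type mESC (day 0) have 2 libraries, labelled technical replicates of 1 culture. Mesoderm cells sorted for Flk1 at day 4 have 3 libraries for each genotype, which are wild-type and the knockouts named P1-CTCF-KO and P2-CTCF-KO, 1 library per clone. Hematopoietic progenitor cells (HPCs) sorted for CD41 at day 7 have 4 wild-type, 3 P1-CTCF-KO and 5 P2-CTCF-KO libraries. In the knockouts CRISPR-Cas9 had removed the binding site of the chromatin protein CTCF next to the distal (P1) or the proximal (P2) promoter of Runx1. The clones of wild-type cells are B9.3, C6.1 and C8.1. The P1-CTCF-KO clones are E7.1, E7.2 and E9.1, and D10.1, D2.1 and a separate E9.1 are the P2-CTCF-KO clones. A second HPC library, marked -2, exists of B9.3, D10.1 and D2.1, so the 4 wild-type and 5 P2-CTCF-KO HPC libraries each come from 3 clones. The mESC libraries were depleted of ribosomal RNA and the sorted cells' libraries were not, so any comparison with mESC is also one of library preparations.

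White blood cells read signals from their surface through a shared chain. Tyrosine kinases of the Src family such as Lyn act first, followed by Syk and Btk. The adaptor Lcp2 (SLP-76) and the lipase Plcg2 pass the signal on, and the phosphatases Ptpn6 and Inpp5d damp it. Vav1, Dock2 and Rac2 connect this chain to the actin skeleton. Much of it is not private to white cells: platelets and their parents, the megakaryocytes, signal through Lyn, Syk, Btk, Lcp2, Vav1 and Plcg2. The products that make a myeloid cell a phagocyte come later in maturation. They include the granule proteases Elane, Prtn3 and Ctsg, the peroxidase Mpo, lysozyme (Lyz2) and the growth factor receptor Csf1r. CD41 is the integrin Itga2b, carried by early progenitors and by megakaryocytes. The sort of HPCs kept CD41+ cells that lacked CD45, the product of the member Ptprc, and lacked the erythroid antigen Ter119.

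Promoter sequence is shown for the members that stand for the different outcomes described below. Dock2, Vav1 and Inpp5d rose from mesoderm to HPCs and Btk went from 0 counts to many, while Ptprc had 0 to 8 counts in every library and Elane 0. Each line gives the 250 bases before the gene's start in the count table, 5′ to 3′ on the gene's strand, from the mm9 genome. The windows are chr11:34597408-34597657 (minus strand) for Dock2, chr17:57418272-57418521 (plus) for Vav1, chr1:89516636-89516885 (plus) for Inpp5d, chrX:131117680-131117929 (minus) for Btk, chr1:140071883-140072132 (minus) for Ptprc and chr10:79348806-79349055 (plus) for Elane. None of the 6 windows overlaps an annotated exon. Capitals mark AGGAAG or its reverse complement, the core bound by ETS factors such as PU.1 (Spi1) and Fli1.
Dock2: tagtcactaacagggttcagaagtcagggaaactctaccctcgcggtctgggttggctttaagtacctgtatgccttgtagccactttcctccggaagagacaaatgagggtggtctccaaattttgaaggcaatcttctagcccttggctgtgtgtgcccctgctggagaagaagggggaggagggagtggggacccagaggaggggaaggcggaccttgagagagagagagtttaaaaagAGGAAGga
Vav1: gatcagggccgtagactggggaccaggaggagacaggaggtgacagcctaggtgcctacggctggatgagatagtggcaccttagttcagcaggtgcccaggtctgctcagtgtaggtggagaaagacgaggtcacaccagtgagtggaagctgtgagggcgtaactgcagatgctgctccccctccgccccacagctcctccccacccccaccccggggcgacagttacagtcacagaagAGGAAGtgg
Inpp5d: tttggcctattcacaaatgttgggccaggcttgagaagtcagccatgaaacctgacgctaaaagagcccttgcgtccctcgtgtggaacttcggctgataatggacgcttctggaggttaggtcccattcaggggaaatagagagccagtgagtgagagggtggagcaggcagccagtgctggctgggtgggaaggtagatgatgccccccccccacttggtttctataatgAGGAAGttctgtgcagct
Btk: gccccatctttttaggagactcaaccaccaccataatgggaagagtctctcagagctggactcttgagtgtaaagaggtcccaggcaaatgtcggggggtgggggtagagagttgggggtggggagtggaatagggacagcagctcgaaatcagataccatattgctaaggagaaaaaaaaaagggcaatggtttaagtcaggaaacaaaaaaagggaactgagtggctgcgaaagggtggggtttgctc
Ptprc: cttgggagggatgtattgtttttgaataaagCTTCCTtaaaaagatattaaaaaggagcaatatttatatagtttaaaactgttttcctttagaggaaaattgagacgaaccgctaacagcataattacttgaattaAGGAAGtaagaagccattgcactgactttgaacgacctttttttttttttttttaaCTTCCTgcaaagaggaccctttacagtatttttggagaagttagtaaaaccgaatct
Elane: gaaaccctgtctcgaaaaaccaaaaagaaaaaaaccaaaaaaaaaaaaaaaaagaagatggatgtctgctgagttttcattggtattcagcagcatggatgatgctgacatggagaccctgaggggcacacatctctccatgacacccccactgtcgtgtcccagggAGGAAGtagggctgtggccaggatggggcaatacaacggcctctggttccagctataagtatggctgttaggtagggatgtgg
The AGGAAG match ends close to the start in Dock2, Vav1 and Inpp5d. Btk holds no AGGAAG in this window, which does not exclude other forms of an ETS site. Over both strands, 26 of the 42 members (61.9%) held AGGAAG in these 250 bases, against 28.8% of 24961 genes with a single position. The matches fell on 10 of 19 pan-leukocyte and 16 of 23 myeloid members, Elane and Ptprc among them. TGTGGT, the core bound by RUNX factors, was in 7 of 42 (16.7%) against 12.6% of genes. The letters AGATAA, which factors of the Gata1 family bind, were in 4 of 42 (9.52%) against 9.19% of genes. The 3 strings do not contain one another, and a match is a description of the letters, not a bound site.

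Depth sets what can be seen. The 23 libraries held 7805102 to 24406998 counts, of which 68.1 to 91.0% fell on ribosomal RNA or entries with several loci. The other counts came to 878966 to 7748566 per library. A gene's level is given as counts or as CPM, the count relative to the library size after TMM scaling, whose factors ran from 0.381 to 7.56. A floor of 3 counts was worth 0.209 to 0.608 CPM in HPC and 0.124 to 0.364 CPM in mesoderm libraries. Of the 42 members, 20 passed the filter on low counts and were tested among 12543 genes, and 22 did not pass. Those 22 were Ptprc, Cd48, Cd53, Fgr and 18 of the 23 myeloid members. Called means an adjusted p under 0.05 (edgeR, quasi-likelihood fit, Benjamini-Hochberg over all genes tested) and a change of more than 1 on the log2 scale in either direction. Adjusted p-values below are from that fit.

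From mesoderm to HPCs in wild-type cells, 16 of the 42 members were called higher and 0 lower, where 10.7% of all genes tested were called higher. The median log2 fold change over all 12543 genes was -0.02. Of 19 pan-leukocyte members 15 were tested and 14 called. Of 23 myeloid members 5 were tested and 2 called, Itgb2 and Csf2rb, and the 18 that did not pass the filter could not be called. The filter took in all 7 groups. Members at or near 0 counts in mesoderm, such as Btk and Itgb2, were therefore tested because of their HPC counts. For these a lower call could not occur, so the 0 lower calls carry little weight. All genes tested passed the same filter. In these bulk libraries, more cells of a type and more RNA per cell cannot be told apart. Below, wild-type counts follow the clone order given at the start, with B9.3-2 placed after B9.3 in HPCs.

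Of the 8 proximal signalling members 7 were called higher, and Fgr did not pass the filter. Lyn (chr4:3605267-3718759), the Src-family kinase at the top of the chain, gave 55, 3 and 12 counts in mesoderm and 253, 90, 160 and 464 in HPCs. Its level rose by 3.85 ± 0.72 on the log2 scale (SE, adjusted p = 5.03e-04), from a mean of 1.43 to 21.9 CPM. Every HPC library lay above every mesoderm library in CPM, as in 16.7% of all genes tested, and the B9.3 mesoderm library was the highest of the 3. Syk (chr13:52678805-52744161), the kinase that binds phosphorylated receptors, gave 28, 3 and 5 counts in mesoderm and 302, 100, 117 and 341 in HPCs, a rise of 4.59 ± 0.81 (adjusted p = 2.93e-04). Btk (chrX:131076879-131117679), the Tec-family kinase that activates Plcg2, was at 0 in all 3 mesoderm libraries and at 135, 25, 25 and 74 counts in HPCs. Against a floor of 3 counts over the mesoderm group that is at least 87.4-fold higher (adjusted p = 0.00141). The highest of these HPC libraries was B9.3 at 11.6 CPM, and B9.3-2, of the same clone, had 3.20 CPM. Plcg2 (chr8:120022174-120159042), which makes the second messengers that release calcium, gave 25, 10 and 7 counts and then 206, 89, 137 and 336, a rise of 4.12 ± 0.74 (adjusted p = 3.6e-04).

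The adaptor and the phosphatases moved with the kinases. Lcp2 (chr11:33946927-33992281), which holds Plcg2 and Vav1 near their kinase, gave 13, 0 and 0 counts in mesoderm and 145, 31, 35 and 92 in HPCs, a rise of 4.53 ± 1.08 (adjusted p = 0.00386). All its mesoderm counts came from B9.3. Inpp5d (SHIP-1, chr1:89516886-89617085), a lipid phosphatase, gave 67, 1 and 11 counts and then 227, 73, 112 and 301, a rise of 3.28 ± 0.80 (adjusted p = 0.00404). Ptpn6 (SHP-1, chr6:124670724-124688727), a tyrosine phosphatase, gave 6, 0 and 5 counts and then 16, 11, 8 and 24, the smallest called rise of the list at 2.46 ± 0.59 (adjusted p = 0.00344). Fgr, a Src-family kinase of mature myeloid cells, did not pass the filter: it had 1 count in each mesoderm library and 1, 0, 0 and 0 in HPCs. The mesoderm library of B9.3 sets part of the size of these rises. Without it the log2 change was 5.23 for Lyn, 5.91 for Syk, and 5.15 for Inpp5d, and these and Lcp2, whose mesoderm counts are then all 0, stayed called.

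Of the 7 regulators of actin and Rac, 6 were called higher. Dock2 (chr11:34126820-34597407), the exchange factor that activates Rac in white cells, gave 3, 0 and 2 counts in mesoderm and 59, 27, 35 and 74 in HPCs, a rise of 5.23 ± 0.74 (adjusted p = 3.72e-05). Vav1 (chr17:57418522-57468659), a Rac exchange factor that acts when phosphorylated by Syk, gave 4, 1 and 0 counts and then 93, 20, 37 and 116, a rise of 5.61 ± 0.98 (adjusted p = 2.93e-04). Arhgdib (chr6:136872180-136890420), the leukocyte inhibitor that holds Rac in the cytosol, gave 5, 0 and 5 counts and then 48, 16, 24 and 120, a rise of 4.32 ± 0.71 (adjusted p = 1.55e-04). In each of these genes the HPC libraries lay above the mesoderm libraries, which 16.7% of all genes tested also showed. Was (chrX:7658591-7667617), which starts actin branching, gave 3, 0 and 2 counts and then 27, 10, 7 and 20, a rise of 3.64 ± 0.84 (adjusted p = 0.00325). Coro1a, an actin-binding coronin, went from 1 count to 38 over the group, a ratio of 38.5 with a 95% counting interval of 6.5 to 1560 (adjusted p = 0.00511). Rac2 itself, the Rac of blood cells, went from 1 count to 27, a ratio of 27.3 with an interval of 4.51 to 1120 (adjusted p = 0.0263). Rac2 lost its call without the HPC library of B9.3 (adjusted p = 0.0888), and in 12 of the 34 alternative settings it did not pass the filter and was not tested. Vav1 and Coro1a stayed called without the B9.3 mesoderm library, which leaves them 1 and 0 mesoderm counts, and Arhgdib stayed called at 3.62 without the HPC library of C8.1.

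Lcp1, the actin bundler L-plastin, was the exception of that group. It gave 60, 3 and 5 counts in wild-type mesoderm and 9, 14, 13 and 29 in HPCs, and its log2 change was 0.09 ± 0.71 (adjusted p = 0.96). The highest of the 7 libraries was the mesoderm library of B9.3, at 3.48 CPM. That library also had the highest endothelial marker sum of the 9 mesoderm libraries, 165 CPM over 14 genes against 34.2 and 37.0 CPM in C6.1 and C8.1. The part of endothelial cells in the Lcp1 counts was not tested. Lcp1 was called higher in wild-type HPCs when this library and the P2-CTCF-KO D10.1 HPC library were left out together.

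Of the 4 surface and membrane members 1 was called, and the other 3 did not pass the filter. Laptm5 (chr4:130469230-130492063), a lysosomal membrane protein of white cells, gave 11, 0 and 6 counts in mesoderm and 54, 21, 20 and 67 in HPCs, a rise of 3.27 ± 0.79 (adjusted p = 0.00394), or 4.01 without the B9.3 mesoderm library. Ptprc, the CD45 gene (chr1:139959435-140071882), whose product the sort selected against, was at 0 in all 9 mesoderm libraries of the 3 genotypes. It gave 1, 1, 0 and 3 counts in wild-type HPCs, 2, 0 and 8 in P1-CTCF-KO HPCs (E7.1, E7.2 and E9.1) and 3, 1, 1, 1 and 0 in P2-CTCF-KO HPCs (D10.1, D10.1-2, D2.1, D2.1-2 and E9.1). At 112 kb its span is close to that of Lyn (113 kb), which had 967 counts in the same 4 wild-type HPC libraries where Ptprc had 5. Ptprc did not pass the filter and was not tested, but in P1-CTCF-KO cells DESeq2 and the fit with no filter called it higher in HPCs, as the latter did Cd53. Cd53, a tetraspanin, had 7 counts there. Cd48, a ligand on most white cells, was at 0 in all 23 libraries.

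**Figure D1:**
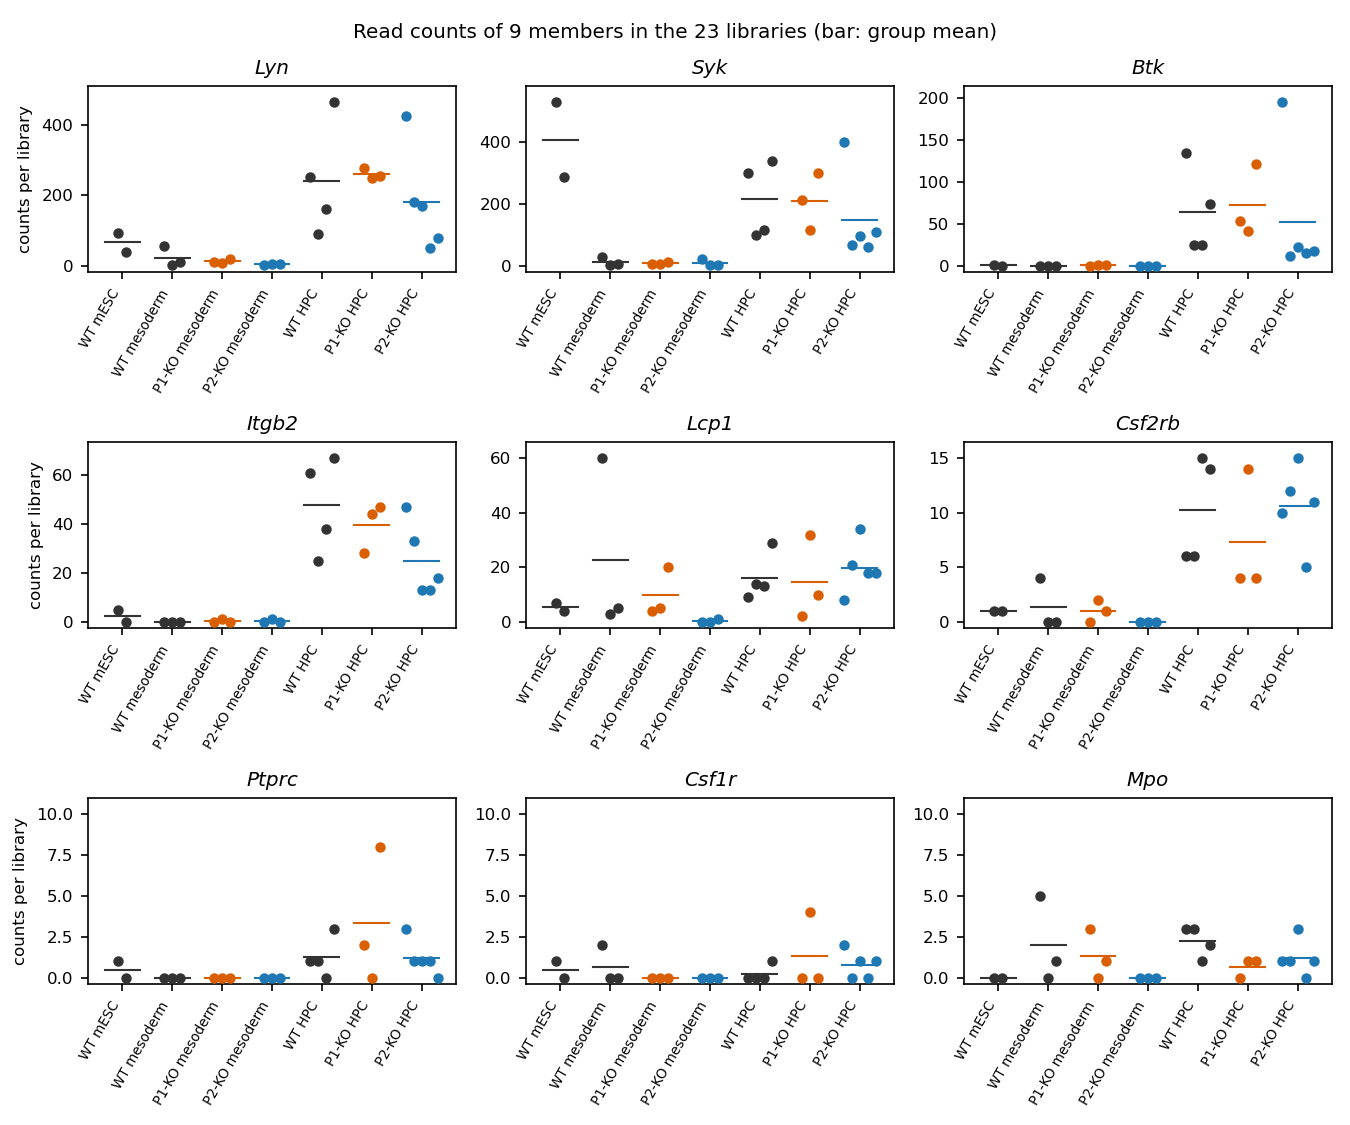
Read counts (y axis, linear, a scale per panel) of 9 of the 42 genes in each of the 23 libraries, by group (x axis: WT mESC, then mesoderm and HPC libraries of the 3 genotypes); points are libraries and bars group means. Btk and Itgb2 have more counts in each of the 12 HPC libraries than in any of the 9 mesoderm libraries, Lcp1 has its highest count (60) in 1 wild-type mesoderm library, and Ptprc, Csf1r and Mpo stay at 8 counts or fewer.

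The cytokine receptors gave 1 call of 4. Csf2rb (chr15:78156229-78181431), the shared beta chain of the receptors for GM-CSF, IL-3 and IL-5, gave 4, 0 and 0 counts in wild-type mesoderm and 6, 6, 15 and 14 in HPCs, a rise of 3.34 ± 0.74 (adjusted p = 0.00249). It stayed called without the B9.3 mesoderm library, where the remaining 2 are at 0, and without C8.1 (2.68). Csf2ra, the alpha chain of the GM-CSF receptor, did not move with its partner: 6, 2 and 5 counts were followed by 6, 3, 3 and 0 (log2 change -0.06 ± 0.87, adjusted p = 0.991). Csf3r, the G-CSF receptor of neutrophils, gave 5, 2, 1 and 5 counts in wild-type HPCs and at most 13, in the D2.1 library of P2-CTCF-KO HPCs. Csf1r, the receptor that macrophages need, gave 2, 0 and 0 counts in wild-type mesoderm and 0, 0, 0 and 1 in HPCs. Its counts were 0, 4 and 0 in P1-CTCF-KO HPCs, 2, 0, 1, 0 and 1 in P2-CTCF-KO HPCs, 1 and 0 in mESC and 0 in the 6 knockout mesoderm libraries.

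The transcription factors of myeloid maturation stayed near the detection limit. Over the 12 HPC libraries Irf8, which guides monocytes, Cebpa, which guides granulocytes, and Cebpe, which acts late in granulocytes, summed to 0 to 3 counts per library. Spi1, which encodes PU.1 and is not a member, was called higher in wild-type HPCs (4.40 ± 1.20 on the log2 scale, adjusted p = 0.00961) at 3, 6, 5 and 12 counts. It reached 1.57 CPM at most in the 12 HPC libraries, where Runx1 stood at 45.6 to 163 CPM.

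The granule proteases were at or next to 0. Mpo, the peroxidase of neutrophil granules (chr11:87607285-87617914), gave 5, 0 and 1 counts in wild-type mesoderm, 3, 0 and 1 in P1-CTCF-KO mesoderm (E7.1, E7.2 and E9.1) and 0 in the 3 libraries of P2-CTCF-KO mesoderm and the 2 of mESC. In HPCs it gave 3, 3, 1 and 2 counts in wild-type, 0, 1 and 1 in P1-CTCF-KO and 1, 1, 3, 0 and 1 in P2-CTCF-KO libraries, so mesoderm and HPC counts overlapped. Elane (chr10:79349056-79350961), neutrophil elastase, was at 0 in all 23 libraries. Prtn3 (chr10:79342411-79345917), proteinase 3, had 1 count in all, in the mesoderm library of wild-type C8.1. Ctsg (chr14:56718721-56721411), cathepsin G, had 1 count in all, in the first mESC library. These genes are short, so a count of 0 allows a sizeable level. The limit of 3 counts over the 4 wild-type HPC libraries, or 0.0721 CPM, corresponds to 0.0378 CPM per kb of gene span for Elane, 0.0206 for Prtn3 and 0.0268 for Ctsg.

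Of 12 macrophage and phagocyte genes, 1 was called in wild-type cells. Itgb2 (CD18, chr10:76993114-77028453), the beta chain of the leukocyte integrins, was at 0 in the 3 wild-type mesoderm libraries and at 61, 25, 38 and 67 counts in HPCs. That is at least 64.5-fold higher against 3 counts over the mesoderm group (adjusted p = 6.3e-06), the smallest adjusted p of the 20 members tested in this comparison. Its partner Itgam (CD11b), an alpha chain of myeloid cells, gave 1, 1, 0 and 3 counts in the same HPC libraries. The members that encode subunits of the phagocyte NADPH oxidase did not pass the test in wild-type cells. Ncf1 went from 1 count to 13 over the group, a ratio of 13.2 with an interval of 1.98 to 560 (adjusted p = 0.0709), Cyba had a log2 change of 1.44 ± 0.90 (adjusted p = 0.254), and Cybb, the catalytic subunit, was at 0 in both wild-type groups. Lyz2 was at 3 counts in the HPC library of B9.3 and at 0 in the other 3, and Cd68, Fcer1g, Fcgr3, Ncf4, Cd33 and Tyrobp had 0 to 12 counts over the 4 wild-type HPC libraries. Ncf4, not tested for low counts, was called higher in wild-type and P1-CTCF-KO HPCs by DESeq2 and with no filter, and so was Fcer1g in P1-CTCF-KO and, of the receptors, Csf3r in P2-CTCF-KO HPCs.

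Because unspliced RNA is counted over exons and introns, a long gene collects more counts than a short one at the same level. The pan-leukocyte members are longer, with a median span of 40.8 kb (5.04 to 471 kb) against 8.17 kb (1.81 to 55.9 kb) for the myeloid members. Per kb of span, the median level in wild-type HPCs was 0.129 CPM per kb over the 19 pan-leukocyte and 0.0136 over the 23 myeloid members, beside 0.0535 over the 12543 genes tested. The member medians include the 22 members that did not pass the filter, 18 of them myeloid. The last median covers only genes that passed, so the sets are unlike. In wild-type mesoderm the same medians were 0.00554 and 0.00151 CPM per kb. Among the members of under 15 kb, the 3 pan-leukocyte ones (Coro1a, Was and Rac2, 5.04 to 13.6 kb) were all called in wild-type cells and had 53 to 143 counts over the 12 HPC libraries. The 15 myeloid ones (1.81 to 10.6 kb) had 0 to 94 with a median of 7, and 0 of them were called in wild-type cells. Syk stood highest per length in wild-type HPCs at 0.301 ± 0.134 CPM per kb (SD, n = 4), followed by Arhgdib at 0.254 ± 0.202, Lyn at 0.193 ± 0.105 and Coro1a at 0.169 ± 0.102. These neighbours do not differ beyond their spread, as the libraries of each overlap with those of the next. Itgb2, at 0.126 ± 0.0325 CPM per kb, was the highest myeloid member and stood 11th of 42. Dock2, with 195 counts over a span of 471 kb, was 28th at 0.00964 ± 0.00282 CPM per kb. Ptprc was 33rd at 0.00103 CPM per kb, and Cd48, Cebpe, Elane, Prtn3, Ctsg, Tyrobp and Cybb were at 0.

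**Figure D2:**
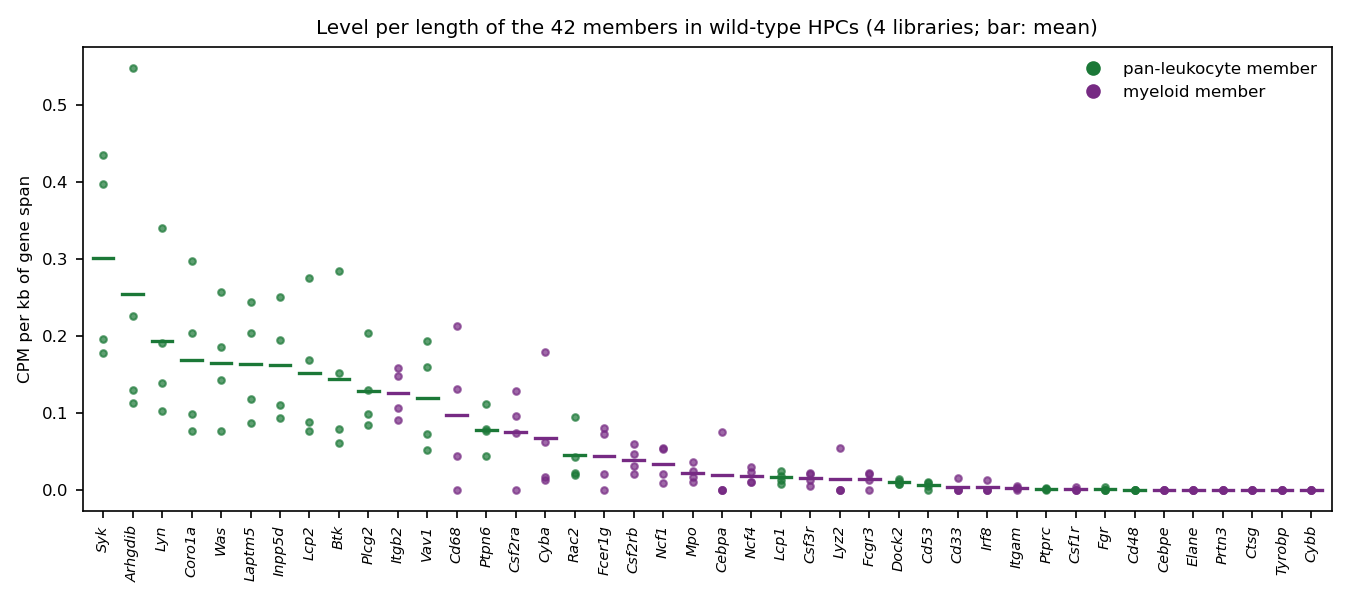
Level per length (y axis, CPM per kb of gene span, linear) of the 42 genes in the 4 wild-type HPC libraries, ordered by mean; points are libraries, bars means, green the pan-leukocyte and purple the myeloid genes. The 10 highest are pan-leukocyte, from Syk (0.301) to Plcg2 (0.129), Itgb2 is the first myeloid gene, and 7 genes are at 0.

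**Figure D3:**
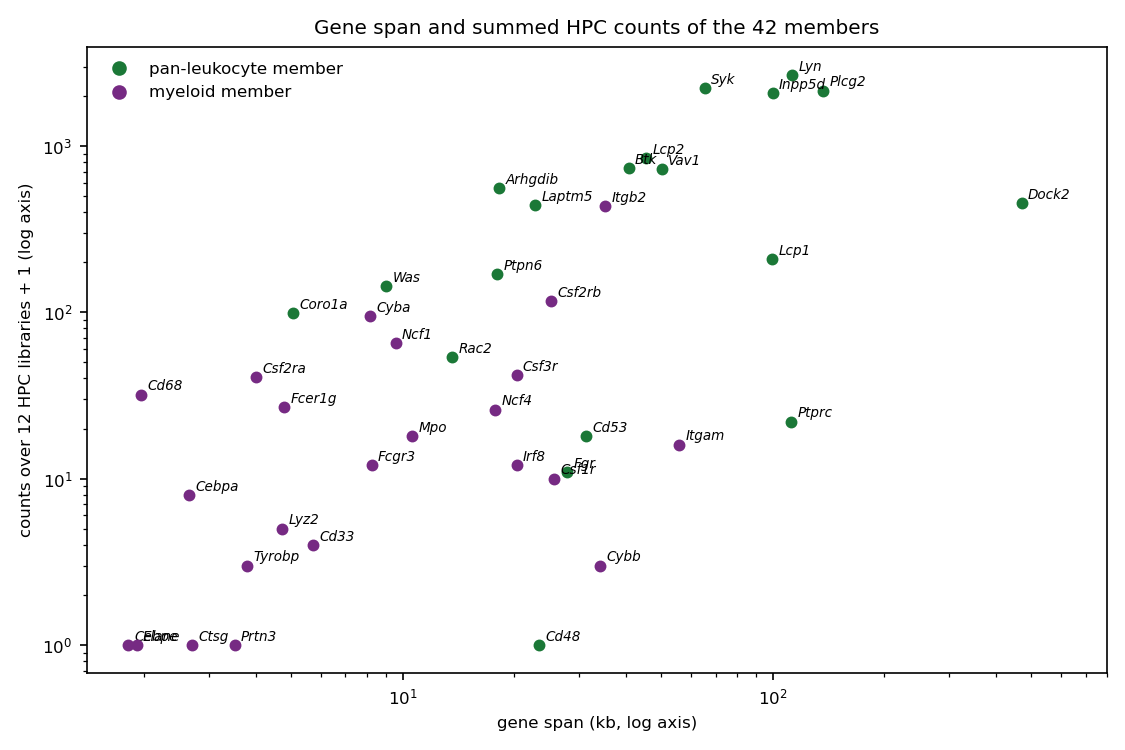
Gene span (x axis, kb, log scale) against counts summed over the 12 HPC libraries plus 1 (y axis, log scale) for the 42 genes, green pan-leukocyte and purple myeloid. At spans under 15 kb Coro1a, Was and Rac2 lie at 53 to 143 counts, and among the long genes Ptprc lies far below Lyn and Inpp5d.

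The knockout clones went through the same step. In P1-CTCF-KO cells 18 of 42 members were called higher in HPCs than in mesoderm, where 13% of all genes tested were, and in P2-CTCF-KO cells 17 of 42, where 13.2% were. No member was called lower. The 3 genotypes shared 15 calls, and 19 members were called in at least 1 genotype. Counts below follow the clone order E7.1, E7.2 and E9.1 for P1-CTCF-KO, and D10.1, D2.1 and E9.1 in mesoderm and D10.1, D10.1-2, D2.1, D2.1-2 and E9.1 in HPCs for P2-CTCF-KO.

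Among the kinases, Lyn went from 11, 7 and 20 to 279, 248 and 255 counts in P1-CTCF-KO and from 3, 6 and 4 to 425, 180, 170, 50 and 78 in P2-CTCF-KO cells. Then Syk went from 5, 7 and 13 to 214, 115 and 300 counts in P1-CTCF-KO and from 21, 2 and 4 to 402, 69, 98, 62 and 110 in P2-CTCF-KO cells, and its D10.1 library was the highest of the P2-CTCF-KO group in both stages. Likewise Btk went from 0, 1 and 1 to 54, 41 and 122 counts in P1-CTCF-KO and from 0, 0 and 0 to 195, 12, 22, 15 and 18 in P2-CTCF-KO cells. Each of these genes was called in both knockouts (adjusted p from 5.1e-05 to 3.09e-04 for Lyn and Syk in P2-CTCF-KO, and 0.00152 for Btk). The lipase Plcg2 went from 14, 23 and 10 to 161, 148 and 267 counts in P1-CTCF-KO and from 42, 6 and 4 to 427, 130, 112, 47 and 89 in P2-CTCF-KO cells. The adaptor Lcp2 went from 2, 1 and 10 to 63, 40 and 145 counts in P1-CTCF-KO and from 0, 2 and 0 to 174, 24, 68, 10 and 21 in P2-CTCF-KO cells, and the phosphatase Inpp5d went from 7, 11 and 40 to 144, 175 and 243 counts in P1-CTCF-KO and from 3, 5 and 3 to 415, 118, 163, 41 and 68 in P2-CTCF-KO cells. The tyrosine phosphatase Ptpn6 went from 7, 10 and 4 to 3, 21 and 22 counts in P1-CTCF-KO and from 4, 3 and 4 to 24, 8, 9, 9 and 14 in P2-CTCF-KO cells. In each of the 7 genes the HPC libraries of a knockout lay above its mesoderm libraries in CPM, as they did for 20.7% of all genes tested in P1-CTCF-KO and 16.2% in P2-CTCF-KO cells. The D10.1 HPC library was the highest of the 5 P2-CTCF-KO libraries for all 7. Without it the P2-CTCF-KO rise was 4.96 in place of 5.60 on the log2 scale for Lyn, 3.55 in place of 4.38 for Syk, 2.75 in place of 3.56 for Plcg2 and 4.89 in place of 5.67 for Inpp5d, and all 4 stayed called.

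Of the actin regulators, Dock2 went from 2, 5 and 0 to 11, 55 and 68 counts in P1-CTCF-KO and from 0, 1 and 0 to 51, 21, 15, 15 and 23 in P2-CTCF-KO cells. The exchange factor Vav1 went from 3, 2 and 4 to 59, 47 and 106 counts in P1-CTCF-KO and from 1, 0 and 0 to 141, 19, 51, 16 and 21 in P2-CTCF-KO cells, and the cytosolic inhibitor Arhgdib went from 1, 5 and 2 to 36, 94 and 36 counts in P1-CTCF-KO and from 1, 0 and 2 to 58, 55, 30, 16 and 21 in P2-CTCF-KO cells. The actin nucleator Was went from 0, 1 and 5 to 3, 12 and 9 counts in P1-CTCF-KO and from 0, 0 and 0 to 20, 18, 10, 2 and 5 in P2-CTCF-KO cells, which is at least 13.2-fold higher in the last case. These 4 were called in both knockouts. Lcp1 was not called in wild-type cells: Lcp1 went from 4, 5 and 20 to 2, 32 and 10 counts in P1-CTCF-KO and from 0, 0 and 1 to 8, 21, 34, 18 and 18 in P2-CTCF-KO cells. In P2-CTCF-KO that is 1 count against 99, a ratio of 71.3 with a 95% counting interval of 12.5 to 2840 (adjusted p = 0.00168), and in P1-CTCF-KO a log2 change of 1.75 ± 0.83 (adjusted p = 0.116). Rac2, at 0 in both knockout mesoderm groups, was called in P1-CTCF-KO (12 counts in HPCs, at least 10.4-fold, adjusted p = 0.0139) and not in P2-CTCF-KO (14 counts, at least 3.36-fold, adjusted p = 0.0609).

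The lysosomal membrane gene Laptm5 went from 0, 5 and 4 to 15, 37 and 53 counts in P1-CTCF-KO and from 0, 0 and 1 to 97, 24, 28, 6 and 16 in P2-CTCF-KO cells. The receptor chain Csf2rb went from 0, 2 and 1 to 4, 14 and 4 counts in P1-CTCF-KO and from 0, 0 and 0 to 10, 12, 15, 5 and 11 in P2-CTCF-KO cells, which is at least 12.7-fold in P2-CTCF-KO, and the integrin Itgb2 went from 0, 1 and 0 to 28, 44 and 47 counts in P1-CTCF-KO and from 0, 1 and 0 to 47, 33, 13, 13 and 18 in P2-CTCF-KO cells. All 3 were called in both knockouts. Ncf1 was called in both (adjusted p = 0.00729 and 0.0156) and Cyba in P1-CTCF-KO (adjusted p = 0.0398). These calls were less firm than the others: over 34 alternative settings Cyba lost its call in 8 (adjusted p = 0.17 without the E7.1 HPC library, for one), Ncf1 in 6 for P1-CTCF-KO and in 7 for P2-CTCF-KO (adjusted p = 0.0748 without the D10.1 mesoderm library, otherwise not tested for low counts). With the clone as a block, Cyba had an adjusted p of 0.0754. Rac2, Cyba, Ncf1 and Lcp1 were called in 1 or 2 genotypes, and the test of the difference between genotypes, given below, called none of them.

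**Figure D4:**
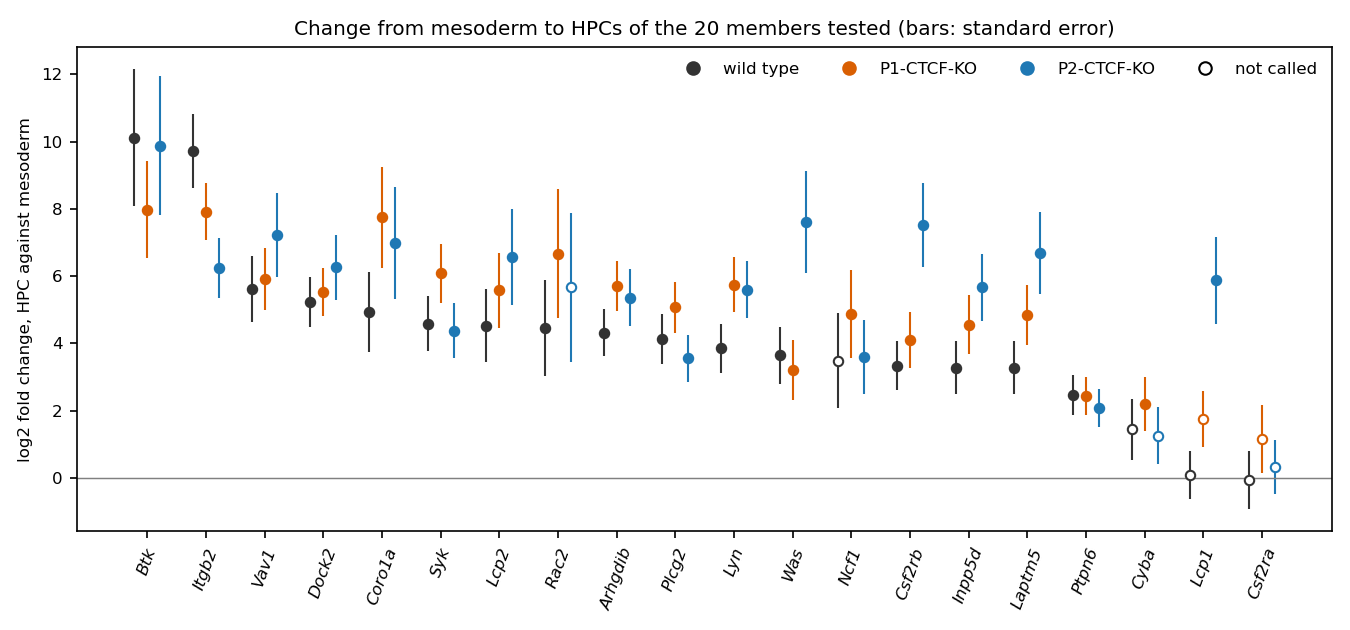
Log2 fold change from mesoderm to HPCs (y axis) of the 20 genes tested, ordered by the wild-type value, with wild-type cells in black, P1-CTCF-KO in orange and P2-CTCF-KO in blue; bars are standard errors and open points were not called. In wild-type cells 16 points are filled; values that rest on mesoderm counts of 0 depend on the prior count (Btk and Itgb2 in wild-type, Coro1a and Rac2 in both knockouts, and Btk, Was and Csf2rb in P2-CTCF-KO cells), and Lcp1 is near 0 in wild-type and 5.87 in P2-CTCF-KO cells.

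Between the genotypes no member passed the threshold, in mesoderm or in HPCs. In mesoderm 0 of 42 were called between P2-CTCF-KO and wild-type cells, where 0.144% of genes (18 of 12543) were, and 0 between P1-CTCF-KO and wild-type cells, where 0% were. The 22 members that did not pass the filter could not be called. Over the P2-CTCF-KO mesoderm group, 13 of 19 pan-leukocyte and 20 of 23 myeloid members had 3 counts or fewer. When the mesoderm libraries were fitted alone, 4 members were tested. The 0 calls in mesoderm therefore do not show that the members' levels were equal. In HPCs 0 of 42 were called in either knockout, as were 0% of all genes in both. At an unadjusted p under 0.05, edgeR's test had 5 members in P2-CTCF-KO mesoderm, all lower, 2 in P2-CTCF-KO HPCs, both lower, and 0 in both P1-CTCF-KO comparisons. Over all genes those counts were 1278, 545, 184 in P1-CTCF-KO mesoderm and 588 in P1-CTCF-KO HPCs. DESeq2 called 1 member, Lcp1 in P2-CTCF-KO mesoderm, and 0 in the other 3 comparisons.

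Lcp1 came closest to a call. It had 60, 3 and 5 counts in wild-type and 0, 0 and 1 in P2-CTCF-KO mesoderm, a log2 difference of -5.56 ± 1.38 (adjusted p = 0.118), and the libraries of these groups did not overlap, as for 16.9% of all genes tested. Its adjusted p ran from 0.0147 to 0.895 over the alternatives. The other 4 were Inpp5d (-2.52 ± 1.07, adjusted p = 0.402), Lyn (-2.14 ± 0.92, adjusted p = 0.409), Csf2rb (4, 0 and 0 counts against 0 in all 3, adjusted p = 0.457) and Laptm5 (11, 0 and 6 counts against 0, 0 and 1, adjusted p = 0.459). In each of these 4 the groups overlapped in CPM, and in each the highest wild-type library was B9.3, the one with 165 CPM of endothelial markers. The P2-CTCF-KO mesoderm libraries had 28.4 to 33.6 CPM of those markers and the P1-CTCF-KO ones 37.9 to 124 CPM. The part of this difference in the members' levels was not tested.

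In HPCs the members with an unadjusted p under 0.05 were Itgb2 (2.39 against 4.44 CPM, log2 difference -0.91 ± 0.39, adjusted p = 0.99) and Dock2 (2.42 against 4.54 CPM, -0.93 ± 0.43, adjusted p = 0.99), both in P2-CTCF-KO cells, and both overlapped with wild-type. Lyn had a mean of 38.9 CPM in P1-CTCF-KO, 21.9 in wild-type and 16.8 in P2-CTCF-KO HPCs, with adjusted p = 0.917 and 1. Runx1, next to which the sites were deleted, had 75.2 to 135 CPM in wild-type, 78.6 to 163 in P1-CTCF-KO and 45.6 to 149 in P2-CTCF-KO HPCs. The test of whether the knockout effect differed between mesoderm and HPCs called 0 members for P2-CTCF-KO, where 0.0159% of genes (2 of 12543) were called, and 0 for P1-CTCF-KO, where 0% were. DESeq2 called 0 members in both. At an unadjusted p under 0.05 these tests had 2 and 0 members, and 853 and 445 genes in all. The lowest adjusted p was that of Lcp1 for P2-CTCF-KO (5.78 ± 1.58, adjusted p = 0.278).

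Transcripts of some of the signalling members were already counted in mESC. In the 2 mESC libraries Syk gave 530 and 288 counts, Plcg2 649 and 414, Inpp5d 399 and 222, Laptm5 157 and 61, Lyn 93 and 40, Dock2 59 and 15, Ptpn6 67 and 38, Arhgdib 27 and 9, and Vav1 26 and 3. Btk gave 1 and 0 counts, Was 2 and 1, Itgb2 5 and 0, Csf2rb 1 and 1, Ptprc 1 and 0, and Lcp2 0 in both. The counts stand on libraries with 7748566 and 4858658 counts outside ribosomal RNA and multi-locus entries and with TMM factors of 7.56 and 4.97, so the scale between mESC and the sorted cells rests on the normalization. From mESC to wild-type mesoderm 3 of 42 members were called higher and 0 lower, where 10.4% of genes were called higher. They were Lcp1 (5.07 ± 1.01, adjusted p = 0.00107), Lcp2 (0 counts against 13, adjusted p = 0.0322) and Csf2rb (2.97 ± 1.06, adjusted p = 0.0445). The mESC libraries are technical replicates of 1 culture, so these p-values do not cover the spread between mESC cultures. All 3 calls rest on the mesoderm library of B9.3: without it 0 of 42 were called. Syk and Plcg2 had log2 differences of -1.81 ± 0.83 and -1.90 ± 0.77 (adjusted p = 0.116 and 0.0731). Both were called lower with separate fits and without the D10.1 HPC library of P2-CTCF-KO, with or without B9.3 mesoderm. With DESeq2, 5 members were called in this step, and 59.3% of the genes called were higher in mesoderm, against 45.5% with edgeR.

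Other genes of the same pathways and of the cell types a CD41 sort could hold were counted by list, in wild-type HPCs against mesoderm and against the same 10.7% of genes called higher. Of 40 other genes of leukocyte signalling and cytoskeleton, 31 were tested, 23 were called higher and 0 lower, among them Plek (8.15 ± 0.99, adjusted p = 7.79e-06), a platelet protein kinase C target, Ptk2b (5.09 ± 0.62, adjusted p = 7.79e-06), a focal adhesion kinase, and Fermt3 (4.72 ± 0.62, adjusted p = 1.6e-05), which activates integrins in platelets and white cells. Of 20 upstream blood regulators 9 were called higher and 2 lower, with Cbfa2t3 (2.67 ± 0.23, adjusted p = 4.51e-07), Gata1 (6.09 ± 0.66, adjusted p = 3.22e-06) and Gfi1b (4.98 ± 0.66, adjusted p = 2.24e-05) leading.

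Genes of mature myeloid cells outside the 42 were at or near 0 as well. Of 21 other macrophage genes 12, including C1qa, Cd14 and Trem2, were at 0 in all 12 HPC libraries and the list summed to 0 to 1.19 CPM per HPC library. The gene called was Mrc1, with 0 counts in wild-type HPCs (adjusted p = 0.0453, lower than in mesoderm). Its wild-type mesoderm counts were 27, 0 and 3, so most came from the B9.3 library. Of 17 other neutrophil and granule genes 11, including S100a8, S100a9 and Camp, were at 0 in all 12. This list summed to 4.89 to 8.76 CPM, most of it Calr, a chaperone that all cells use (6.23 CPM in wild-type HPCs, log2 change 0.01 ± 0.24, adjusted p = 1). Of 10 mast cell and basophil markers 0 were called and 6 were at 0 in all 12. Of 18 lymphoid markers 0 were called higher, 2 lower (Tcf7 and Bcl11b), and 10, with Cd3e and Il7r, were at 0.

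Markers of the megakaryocyte and red cell lineages summed to more than those of the macrophage, neutrophil, mast cell and lymphoid lists in each HPC library. Of 13 megakaryocyte markers 12 were called higher and 0 lower, led by Thbs1 (8.91 ± 0.99, adjusted p = 3.22e-06), Itgb3 (7.96 ± 0.93, adjusted p = 5.64e-06) and Itga2b (4.89 ± 0.71, adjusted p = 5.03e-05), the gene of CD41 itself. Their sum was 79.1 to 709 CPM in the 12 HPC libraries and 0.444 to 3.83 CPM in the 9 mesoderm libraries. Of 12 erythroid markers 12 were called higher, Gata1 among them, with sums of 54.8 to 342 CPM in HPCs. Endothelial markers gave 0 higher and 5 lower calls of 14, with a log2 change of -2.04 ± 0.45 (adjusted p = 0.0021) for Kdr, the gene of Flk1. The endothelial sum was 117 CPM in the P2-CTCF-KO HPC library D2.1, which also had the highest Lcp1 level of its group (2.37 CPM), and 19.1 to 64 CPM in the other 11. Without this library the log2 change of Lcp1 from mesoderm to P2-CTCF-KO HPCs was 5.74 and stayed called. Of the markers the sort used, the CD41 gene was thus called higher and the CD45 gene (Ptprc) had 0 to 8 counts per HPC library.

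Libraries of the same clone and stage differed widely in the pan-leukocyte members. Of the 16 members called in wild-type cells, 14 were higher in B9.3 than in B9.3-2, with a median ratio of 1.95. The ratio was 3.62 for Btk (11.6 against 3.20 CPM), 2.03 for Syk (25.9 against 12.8 CPM) and 0.671 for Csf2rb (0.515 against 0.768 CPM). In P2-CTCF-KO D10.1 against D10.1-2, 15 of the 16 were higher and the median ratio was 3.34. Btk reached 18.9 CPM in D10.1 and 1.15 CPM in D10.1-2, a ratio of 16.4, Syk 39.0 and 6.63 CPM, and Itgb2 4.56 and 3.17 CPM. For D2.1 against D2.1-2, 10 were higher, 5 lower and Rac2 was at 0 in both, with a median ratio of 1.57. Syk thus stood 5.87-fold and Itgb2 1.44-fold higher in the first D10.1 library, while Csf2rb had a ratio of 0.84.

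The sum of the megakaryocyte markers was also higher in the first library of each pair. It was 508 CPM in B9.3 and 164 CPM in B9.3-2, 709 and 117 CPM in D10.1 and D10.1-2, and 100 and 79.1 CPM in D2.1 and D2.1-2. Thbs1 and Itgb3 made up most of each sum, at 253 and 113 CPM in B9.3. In the D2.1 pair Thbs1 (42.6 and 29.7 CPM) and Itgb3 (34.2 and 22.1 CPM) were higher in the first library, and Itga2b was lower (10 and 12.5 CPM). Thbs1 was also counted in mESC, at 11.4 and 8.23 CPM. Pf4, a platelet chemokine of that list chosen here after its values were seen, was at 4.21 and 0.896 CPM in the B9.3 pair and at 15.4 and 0.192 CPM in the D10.1 pair. In the D2.1 pair Pf4 was not higher in the first library, at 0.488 and 0.528 CPM. The erythroid sum went the other way, at 118 and 265 CPM in the B9.3 pair, 132 and 302 CPM in the D10.1 pair and 54.8 and 330 CPM in the D2.1 pair. Over all 12 HPC libraries the megakaryocyte sum ran from 79.1 to 709 CPM. Lyn ran from 5.28 to 56.6 CPM, Btk from 1.15 to 18.9 CPM, Lcp2 from 1.06 to 18.4 CPM, and Csf2rb from 0.507 to 1.57 CPM. The part of megakaryocytes in the members' levels was not tested. Without the 3 repeat libraries the stage calls were 16, 18 and 17 of 42 in the order wild-type, P1, P2, and without wild-type B9.3 mesoderm and P2-CTCF-KO D10.1 HPCs together they were 16, 17 and 16. Both checks were chosen after the data were seen.

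**Figure D5:**
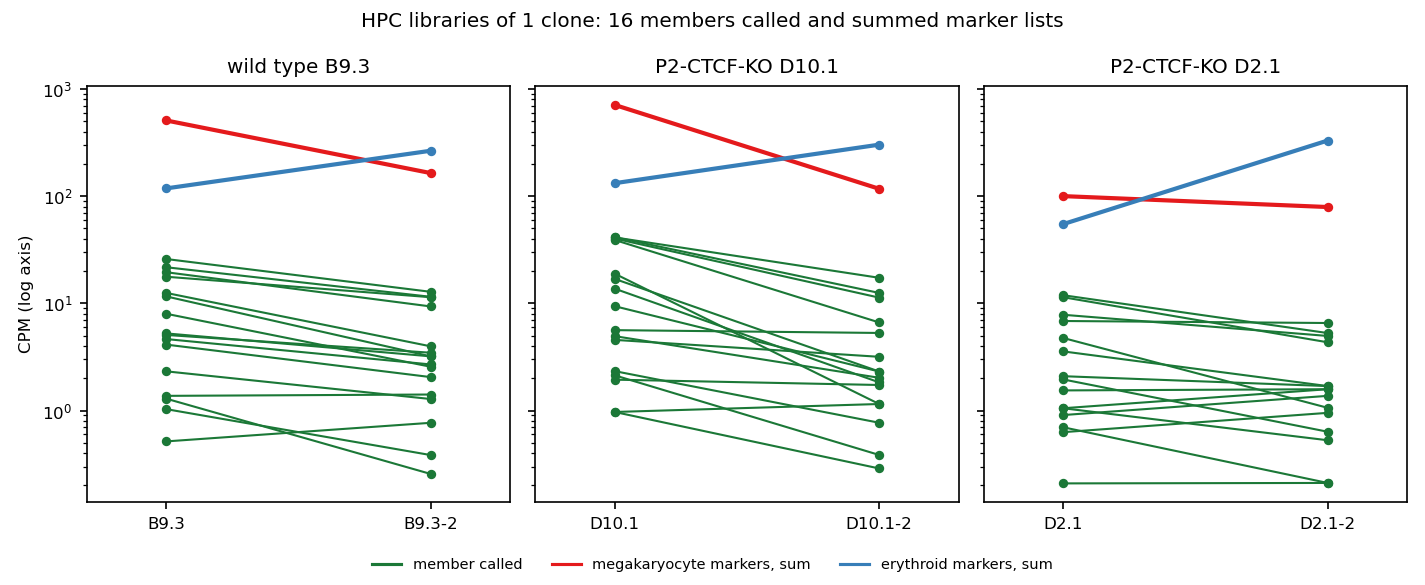
Level (y axis, CPM, log scale) in the first and the second HPC library of 3 clones (x axis) for the 16 genes called in wild-type cells (green, 1 line per gene) and for the sums of 13 megakaryocyte (red) and 12 erythroid (blue) markers; Rac2, at 0 in both D2.1 libraries, is not drawn. In B9.3 and D10.1 most green lines and the red line fall from the first to the second library while the blue line rises.

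Open chromatin gave a separate readout of the members, with 1 peak list per stage and so no test. The ATAC-seq lists were called on merged reads, for mesoderm of 2 biological replicates and for HPCs of 1, each with 2 technical replicates, and hold 76766 and 29037 peaks. Within 1000 bp of an annotated start, 12 of 42 members (28.6%) had an HPC peak against 39.5% of 24961 genes, and 15 (35.7%) had a mesoderm peak against 58.5%. The HPC peaks were at 5 of the 16 members called in wild-type cells (Coro1a, Dock2, Rac2, Lyn and Itgb2) and at 7 of the 26 not called. The mesoderm peaks were at 8 of the same 16 and at 7 of the 26. Ptprc, Cd53, Dock2, Rac2, Fcer1g and Cd33 had a peak in the HPC list and none in the mesoderm list. For 9 members it was the reverse, and 5 of these (Vav1, Arhgdib, Lcp2, Plcg2 and Ptpn6) were called higher in wild-type HPCs. Genes with a peak in 1 list only were not counted over all genes, and the mesoderm list is the longer. These counts therefore do not show opening or closing particular to the members. The mesoderm peaks of Vav1 and Lcp2 lie inside the gene, 32819 and 40348 bp from its start, at a later annotated start. The HPC peak of Coro1a is likewise inside, 3548 bp from the gene's start. The Ptprc peak (chr1:140071863-140071934) spans -52 to 19 bp from the start and takes in 1 base of the AGGAAG match nearest the start. The Dock2 peak (chr11:34597344-34597473) spans -66 to 63 bp and covers all 6 bases of its match. Syk, Btk, Inpp5d, Laptm5, Was and Csf2rb were called and had a peak at the start in neither list. Inside the gene spans, 14 of 19 pan-leukocyte members held an HPC peak (39 peaks in all, for spans with a median of 40.8 kb) and 6 of 23 myeloid members (8 peaks, median span 8.17 kb), and the mesoderm list had 62 peaks in 17 of 19 and 14 peaks in 6 of 23. No share over all genes was taken for the spans, so these counts describe the members only.

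CTCF binding in 416B cells, a mouse myeloid progenitor line, fell within 1000 bp of a start for 6 of 42 members (14.3%) against 16.9% of genes. These were Coro1a, Lcp1 and Lcp2 of the pan-leukocyte and Cebpa, Mpo and Ncf1 of the myeloid members. Lcp1, the member nearest to a call in P2-CTCF-KO mesoderm, has such a peak (chr14:75596897-75597184), whose centre is at -667 bp from an annotated start inside the gene. The peaks of Coro1a, Lcp2 and Mpo also lie inside the gene, centred 3482, 40378 and 9007 bp from its start.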

How the data were processed

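The poly(A)-minus libraries were made with a directional kit. The authors aligned reads to mm9 with STAR, removed duplicates with picard and counted reads over whole genes, exons and introns together, with featureCounts; the deposited values are raw counts per gene. The strand setting and the gene annotation are not given in the sources used here, so reads of overlapping genes (Insyn2b in Dock2, 4930469K13Rik in Lcp2, 6330407A03Rik in Lyn) cannot be told apart from the member's. Peak lists were deposited as positions only. The authors called them with MACS2 on merged reads, and the labels and the methods name the ATAC-seq line differently (E14-TG2a and E14-TG2a-RV). A gene had a peak at its start where a peak overlapped 1000 bp on either side of an annotated start, which can lie inside the gene.

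The 187 ribosomal or multi-locus entries were kept in the library sizes and in the main fit. Leaving them out was an alternative setting, under which the same members were called in every comparison. edgeR 4.0.16 (TMM, filterByExpr with a minimum count of 10, quasi-likelihood test, all 23 libraries in 1 fit of 7 groups) gave log2 changes with standard errors and p-values adjusted by Benjamini-Hochberg over 12543 genes, in R 4.3.3. DESeq2 1.42.0 was an alternative, and figures used Python 3.11.15 and matplotlib 3.10.9. The test was tried on simulated data first. CPM were counts per TMM-scaled library size, and CPM per kb were divided by gene span. Intervals and floors cover counting error only. Where a mesoderm group had 0 counts, folds are lower bounds against 3 counts over the group, and with 1 to 3 counts the ratio is given with a 95% interval.

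The members and all lists were chosen with earlier results of these data known. Values in every library are given for Ptprc, Csf1r, the granule proteases and up to 14 members called in wild-type cells by smallest adjusted p, and up to 3 genes were named per other list. Lcp1 and other members beyond that rule were singled out after their values were seen, as were the markers listed at 0. Replicates of the sorted cells are separate clones or further libraries of a clone, those of mESC are 2 technical replicates of 1 culture, and p-values measure the spread between these libraries. The 29 pairs of libraries within groups differed beyond counting noise (chi-square per degree of freedom 5.14 to 147), so none was counted as a duplicate. Each knockout or wild-type clone has a library at both stages, so stages are paired by clone: over 9 clones the deviations from the group means correlated by -0.04 to 0.12. A fit with the clone as a block was run as an alternative, beside other normalization, filters, fits and the leaving out of each library. Sequences and start sites came from the mm9 genome with GENCODE vM1, in which 20093 of 24961 genes were found by name.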

Additional observations from a re-analysis of the deposited data

Results flagged for a closer look

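Of 40 groups of 4 or 5 libraries examined, 8 had a library far from the others by Dixon's criterion, which chance gives in about 1 of 20 groups. All 8 were the same library, the HPC library of P2-CTCF-KO D10.1, so they are not 8 separate events. Its levels were 41.4 CPM for Plcg2 (4.96 to 12.5 in the other 4 libraries of the group), 40.2 CPM for Inpp5d (4.33 to 11.4), 39 CPM for Syk (6.55 to 11.9) and 18.9 CPM for Btk (1.15 to 1.96). They were 16.9 CPM for Lcp2 (1.06 to 4.75), 13.7 CPM for Vav1 (1.69 to 3.56), 9.4 CPM for Laptm5 (0.634 to 2.31) and 2.13 CPM for Coro1a (0.209 to 0.434). This library also had the highest megakaryocyte marker sum of the 12 HPC libraries, 709 CPM, and its part in these levels was not tested. Without the library each of the 8 genes was still called between mesoderm and HPCs in P2-CTCF-KO cells.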

How the results depend on the processing

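Over 32 planned settings and 2 added after the data were seen, the number of the 42 members called between mesoderm and HPCs was 15 to 17 in wild-type cells and 15 to 18 in P2-CTCF-KO cells. In P1-CTCF-KO cells it was 12 with separate fits, 22 with no filter (Ptprc, Cd53, Fcer1g and Ncf4 added), 21 with DESeq2 (Ptprc, Fcer1g and Ncf4 added) and 16 to 18 when 1 library was left out. With the clone as a replicate block the counts were 15, 15 and 16 for wild-type, P1 and P2, and 0 in both tests of a difference between stages. The calls lost under the block were Rac2 in wild-type cells, Rac2, Cyba (adjusted p = 0.0754) and Ncf1 in P1-CTCF-KO cells and Ncf1 in P2-CTCF-KO cells, where Rac2 and Ncf1 had too few counts to be tested; it changed no other call. Genotypes within a stage cannot be blocked, since each clone has 1 genotype. In mesoderm, 1 member (Lcp1) differed past the threshold from wild-type in P2-CTCF-KO cells with DESeq2, with no filter, and without wild-type C6.1, and leaving out 1 library gave 0 to 1. Over all genes DESeq2 called 115 there against 18, 36 against 2 in the P2-CTCF-KO test of a difference between stages, 2 against 0 for P1-CTCF-KO HPCs and 1 against 0 in the P1-CTCF-KO test of a difference. Between mESC and wild-type mesoderm 5 members were called with DESeq2 (0 lower) and with separate fits (2 lower, Syk and Plcg2), and leaving out 1 library gave 0 (without wild-type B9.3 mesoderm) to 5 (without P2-CTCF-KO HPC D10.1, 2 lower). Plcg2 was also called lower with libraries summed per clone, with no filter and without P2-CTCF-KO mesoderm D10.1. The other comparisons stayed at 0 when 1 library was left out. Signs turned without the B9.3 mesoderm library, alone or together with D10.1 HPCs. From mESC to mesoderm Csf2rb was then -1.23 and -1.25 (highest 3.64 without another library). In P1-CTCF-KO against wild-type mesoderm Lcp1 was 0.75 and 0.75 (lowest -2.72) and Lyn 0.30 and 0.28 (lowest -1.75). In the difference between stages Lcp1 for P1-CTCF-KO was -0.50 and -0.48 (highest 2.98), Csf2rb for P2-CTCF-KO was -0.01 without B9.3 alone (highest 4.87), and Inpp5d for P2-CTCF-KO was -0.25 with both left out. Of these results only Csf2rb from mESC to mesoderm had been called with all libraries, and the cause was not tested. Within 5000 bp of a start, 21 members had a CTCF peak and 26 a mesoderm ATAC-seq peak, and 6 had an HPC ATAC-seq peak when only peaks wider than the median were kept. Depth limits the short myeloid genes most: 3 counts were worth 0.209 to 0.608 CPM in an HPC library.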
